A study of Mus musculus with 12 samples.

Results

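Retinoic acid is made from vitamin A and acts in the nucleus through pairs of receptors, a retinoic acid receptor (Rar) bound to a retinoid X receptor (Rxr) on DNA. Cellular retinoic acid binding proteins carry it in the cytosol, hydroxylases of the Cyp26 family break it down, and Dhrs3 turns its precursor retinaldehyde back into retinol. In the fetal ovary of the mouse it promotes expression of Stra8 and the entry of germ cells into meiosis. The genes examined here were 9 named members of this system: the receptors Rara, Rarb, Rarg, Rxra and Rxrb, the carriers Crabp1 and Crabp2, the hydroxylase Cyp26b1 and the reductase Dhrs3. All 9 were found by symbol among the 12516 genes of the deposited table, and all 9 passed the filter on low values (a mean of at least log2 of 10).

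The cells were female germ cells, sorted for Oct4, from single mouse embryos at embryonic day 13.5. Mothers of 6 embryos had been withdrawn from vitamin C for the first 2 weeks of gestation, and mothers of the other 6 had been supplied with it at physiological levels. Every embryo in both groups was Gulo-/- on a C57BL/6 background; these mice lack the last enzyme of vitamin C synthesis and depend on the diet for it. The comparison asks how expression in the embryonic germline differs with the mother's vitamin C. Each embryo has 1 value per gene, the authors' normalized log2 expression. The sequencing depth behind the values is unknown.

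Germ cell identity was checked on 10 markers, and 9 of them had a mean above the table's median of 8.11. By the limma fit described with the results, 3 of these 10 were lower in withdrawn embryos (Dazl, Ddx4 and Mael), where 7.75% of all genes tested were. Another 5 were higher (Pou5f1, Dppa3, Dnd1, Prdm1 and Tfap2c), where 6.22% of all genes tested were. The germ cell markers thus themselves differed between the diets. The markers of other gonadal cells were mostly low: 0 of 13 supporting cell, 1 of 5 mesenchymal, 1 of 7 endothelial, 0 of 5 macrophage and 2 of 5 mesonephric markers lay above that median. All 13 supporting cell markers had a log2 fold change below 0, with a median of -0.11, as had 6638 of all 12432 genes tested. By limma 2 of these 13 (Emx2 and Kitl) and 1 of 5 mesenchymal markers (Fbln1) were called lower. Of the mesonephric markers 1 of 5 (Epcam) was called higher, and 0 endothelial or macrophage markers were called. The summed linear level of the mesenchymal markers ranged from 723.2 to 901.5 in withdrawn and from 924.4 to 1207 in supplied embryos, and that of the supporting cell markers from 563 to 648 in withdrawn and from 598 to 724 in supplied embryos. The endothelial sum, from 2571.1 to 2964.3 in withdrawn and from 1967 to 2763 in supplied embryos, and the mesonephric sum, from 3984 to 4664 in withdrawn and from 3361 to 4402 in supplied embryos, lay higher in withdrawn embryos with overlap. The macrophage sum ran from 105 to 118 in withdrawn and from 112 to 139 in supplied embryos. The mesenchymal sum came mostly from Fbln1, the endothelial sum from Pecam1 and the mesonephric sum from Epcam and Cdh1. In withdrawn embryos their means were 9.33, 11.38, 11.24 and 10.69. The next highest marker of each list was Col3a1 at 6.01, Cldn5 at 5.28 and Krt18 at 7.80. Which cells expressed these genes was not tested, so these sums cannot be read as levels of those cell types. In sorted bulk samples, fewer cells of a type and less RNA per cell cannot be told apart.

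Rara, Rxra and Cyp26b1 fell in withdrawn embryos, and none of the 9 genes rose. Rara was 1.25-fold, Rxra 1.31-fold and Cyp26b1 1.095-fold lower than in supplied embryos. A gene counted as changed where the adjusted p of a limma fit over all 12432 genes kept by the filter was below 0.05. By that rule 3 of 9 members were called lower, where 7.75% of all genes tested were lower, and 0 of 9 were called higher, where 6.22% were. Before adjustment the limma p was below 0.05 for 5 of 9 members (55.6%) and for 30.2% of all genes tested, in either direction. Of these members, Rarg and Crabp1 were the 2 with a log2 fold change above 0. The exact permutation test called 0 members and 4.49% of all genes tested. The median log2 fold change was -0.05 over the members and -0.01 over all genes tested. The groups overlapped for all 9 members, where 4.49% of genes tested had groups that did not.

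**Figure D1:**
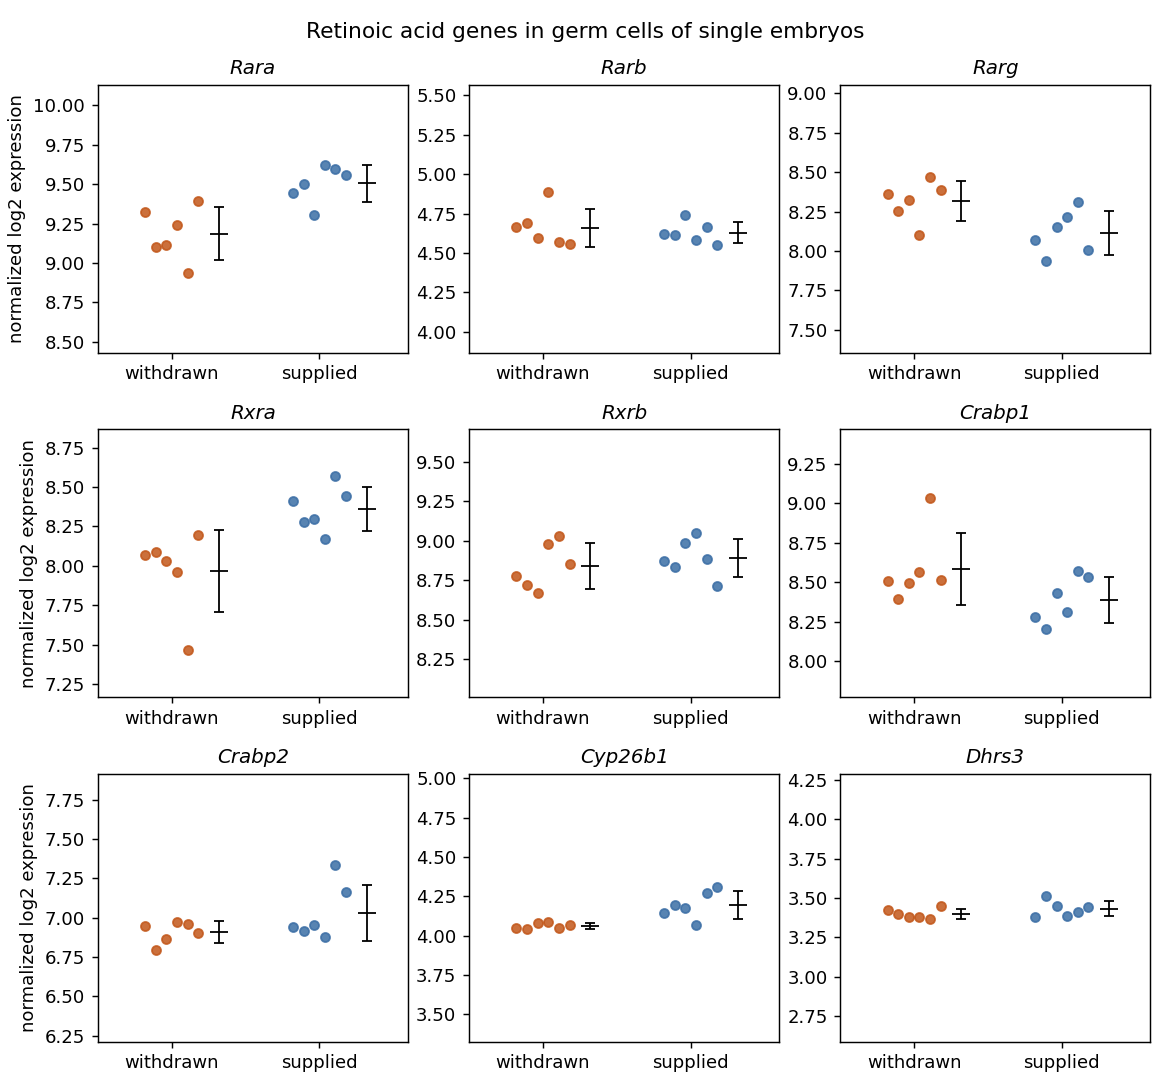
Normalized log2 expression of the 9 genes in each of the 6 withdrawn (left) and 6 supplied (right) embryos; each point is 1 embryo, bars give the mean and SD, and every panel spans the same range on the log2 scale. Rara, Rxra and Cyp26b1 sit lower in withdrawn embryos, whereas the 2 groups of Rarb, Rxrb and Dhrs3 lie at nearly the same level.

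The receptor for retinoic acid with the highest level per length was Rara. Its values in withdrawn embryos had a lowest of 8.94, a median of 9.18 and a highest of 9.40, against a lowest of 9.31, a median of 9.53 and a highest of 9.62 in supplied embryos. Thus 4 of 6 withdrawn embryos lay below every supplied embryo, and the remaining 2 fell within the supplied range. The mean was 9.19 ± 0.17 in withdrawn and 9.51 ± 0.12 in supplied embryos (SD, n = 6 each), a log2 fold change of -0.32 (SE 0.08, limma adjusted p = 0.0120). On the linear scale this is a change of -19.9% (95% interval -28.4% to -10.2%).

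Rxra encodes a partner that retinoic acid receptors need for binding DNA, and which also pairs with several other nuclear receptors. In withdrawn embryos it had a lowest value of 7.46, a median of 8.05 and a highest of 8.20, against 8.17, 8.35 and 8.57 in supplied embryos. All but 1 withdrawn embryo lay below the lowest supplied embryo. The means were 7.97 ± 0.26 in withdrawn and 8.36 ± 0.14 in supplied embryos (SD, n = 6 each), and the log2 fold change was -0.39 (SE 0.10, limma adjusted p = 0.0130). This is a change of -23.9% on the linear scale (95% interval -33.9% to -12.3%). Its low end was set by withdrawn replicate 5 at 7.46, and without that embryo the log2 fold change of Rxra was -0.29 and it was still called (limma adjusted p = 0.0168).

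The closely related Rxrb, which serves as the same kind of partner, had means of 8.84 ± 0.15 in withdrawn and 8.89 ± 0.12 in supplied embryos (SD, n = 6 each). Its log2 fold change was -0.05 with a 95% interval from -0.21 to 0.11 (limma adjusted p = 0.688). Values ran from 8.67 to 9.03 in withdrawn and from 8.71 to 9.05 in supplied embryos, so the groups covered nearly the same range.

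Rarg, the retinoic acid receptor gamma, differed in the other direction without passing the test. It had a lowest value of 8.10, a median of 8.34 and a highest of 8.47 in withdrawn embryos, against 7.94, 8.11 and 8.31 in supplied embryos, and 4 of 6 withdrawn embryos lay above every supplied one. The log2 fold change was 0.20 (95% interval 0.04 to 0.36, limma adjusted p = 0.0809).

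Rarb, the retinoic acid receptor beta, is a classical direct target: retinoic acid raises its transcription through an element in its promoter where the Rar and Rxr pair binds. Its promoter is shown because it carries this element in full, so that Rarb serves as a known readout of the pathway among the members. The window runs from 250 bases before to 50 after the start of transcription, at chr14:16575427-16575726 on the minus strand of GRCm38.p6 (RefSeq), with both repeats of the element in capitals.
Rarb: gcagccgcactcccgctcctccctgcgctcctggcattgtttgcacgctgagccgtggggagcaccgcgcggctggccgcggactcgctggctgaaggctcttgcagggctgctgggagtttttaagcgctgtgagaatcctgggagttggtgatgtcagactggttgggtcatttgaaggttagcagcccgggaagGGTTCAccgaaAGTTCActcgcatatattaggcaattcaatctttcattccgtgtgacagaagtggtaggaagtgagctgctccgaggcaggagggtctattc

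The element was searched as a pair of six-letter repeats, each AGGTCA, its variant AGTTCA, the form GGGTCA or the form GGTTCA, in the same direction and 1, 2 or 5 bases apart, on both strands. Such a pair was present in 0.588% of all 32851 promoter windows in the RefSeq table, and with a spacing of 5 bases in 0.0974%. Of the 8 members with a window in that table, Rarb was the 1 with a match. The forms searched include both repeats of its known element, so this match was fixed in advance. A window of 300 bases cannot show that the other members lack such an element. The match in Rarb starts 53 bases before the transcription start. A match describes letters only, and the authors' values were made on mm9, so these coordinates belong to the reference sequence and not to the expression values.

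Expression of Rarb was low and did not pass the test. Its values ran from 4.56 to 4.89 with a median of 4.63 in withdrawn embryos, and from 4.55 to 4.74 with a median of 4.62 in supplied embryos. The groups lay on top of each other, with 3 of 6 withdrawn embryos on each side of the supplied mean. The log2 fold change was 0.03, and its 95% interval from -0.07 to 0.13 covers changes between -4.63% and 9.44% on the linear scale (limma adjusted p = 0.709). The median SD within a diet was 0.05 in the lowest 10% of genes by mean value and 0.11 over all genes, so differences among genes this low may be compressed. Rarb, with a mean of 4.64, lay at the upper end of that 10%, which reached 4.65. Its own SD within the diets was 0.10, nearer that of all genes.

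**Figure D2:**
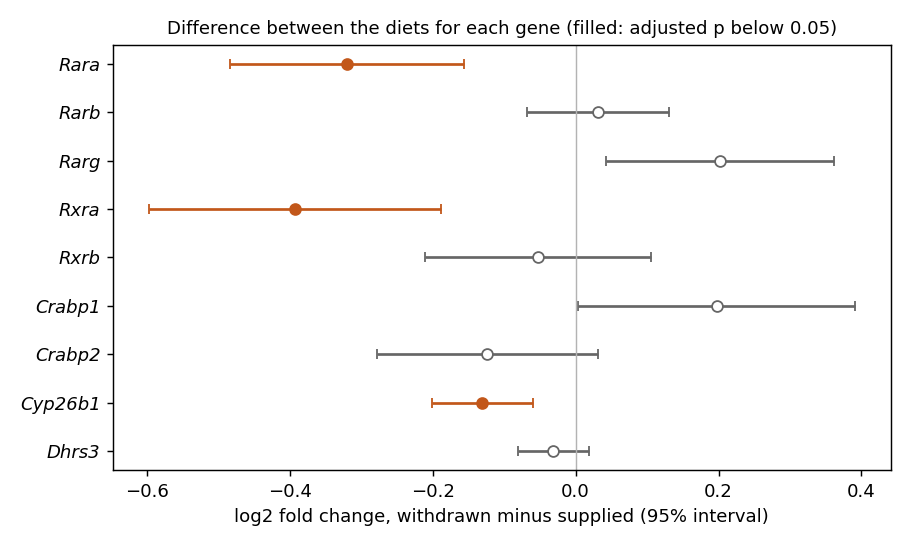
Log2 fold change, withdrawn minus supplied, of the 9 genes with the 95% interval of the limma fit; filled points have an adjusted p below 0.05. Rara at -0.32, Rxra at -0.39 and Cyp26b1 at -0.13 are filled, and the intervals of Rarb, Rxrb, Crabp2 and Dhrs3 cross 0.

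Both carriers of retinoic acid in the cytosol were detected. Crabp1, which binds retinoic acid and in cultured cells is linked to its breakdown, had a lowest value of 8.39, a median of 8.51 and a highest of 9.04 in withdrawn embryos, against 8.20, 8.37 and 8.57 in supplied embryos. All 6 withdrawn embryos were above the supplied mean, but only withdrawn replicate 5 exceeded the highest supplied embryo. The log2 fold change was 0.20 (95% interval 0.0036 to 0.39), which did not pass (limma adjusted p = 0.158).

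Crabp2, which hands retinoic acid to its receptors in the nucleus, had values from 6.79 to 6.97 with a median of 6.93 in withdrawn embryos and from 6.88 to 7.33 with a median of 6.95 in supplied embryos. The medians were close, and 2 supplied embryos lay above all withdrawn ones. Its log2 fold change was -0.12 (95% interval -0.28 to 0.03, limma adjusted p = 0.278), and -0.063 without supplied replicate 5 (limma adjusted p = 0.605).

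Cyp26b1 hydroxylates retinoic acid for removal, and in the fetal testis of the mouse it keeps germ cells from meeting it. In withdrawn embryos the lowest value was 4.04, the median 4.06 and the highest 4.09, against a lowest of 4.07, a median of 4.18 and a highest of 4.31 in supplied embryos. The withdrawn embryos were tightly grouped, and 5 of 6 supplied embryos lay above all of them. The log2 fold change was -0.13 (SE 0.03, limma adjusted p = 0.0159), a change of -8.68% on the linear scale. At this level only 5.74% of genes in the table had a lower mean. The 13 supporting cell markers, all below the table's median level, had a median log2 fold change of -0.11. Which cells expressed Cyp26b1 was not tested.

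Dhrs3, which lowers retinoic acid supply by reducing retinaldehyde, was at the bottom of the table, with 0.887% of genes lower. It ranged from 3.37 to 3.45 in withdrawn and from 3.38 to 3.51 in supplied embryos, with a log2 fold change of -0.03 (95% interval -0.08 to 0.02, limma adjusted p = 0.402). Values this low cannot be read as expression or as its absence without the read counts.

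The calls of Rara, Rxra and Cyp26b1 each held when any 1 of the 12 embryos was left out, with adjusted p values of at most 0.0340, 0.0397 and 0.0483. All 3 calls were lost without the 4 embryos whose title carries number 4 (log2 fold changes of -0.27, -0.25 and -0.080, with adjusted p values of 0.135, 0.128 and 0.251) and by the exact permutation test per gene (0.0692, 0.0598 and 0.0754), which called the 558 genes whose groups do not overlap. When the mean level of the 34 somatic markers was added to the fit, the log2 fold changes of Rara, Rxra and Cyp26b1 were -0.34, -0.45 and -0.14, with adjusted p values of 0.0558, 0.0430 and 0.0653. That mean includes Fbln1, Pecam1, Epcam and Cdh1, and which cells expressed these was not tested. This covariate therefore cannot be read as the level of somatic cells.

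**Figure D3:**
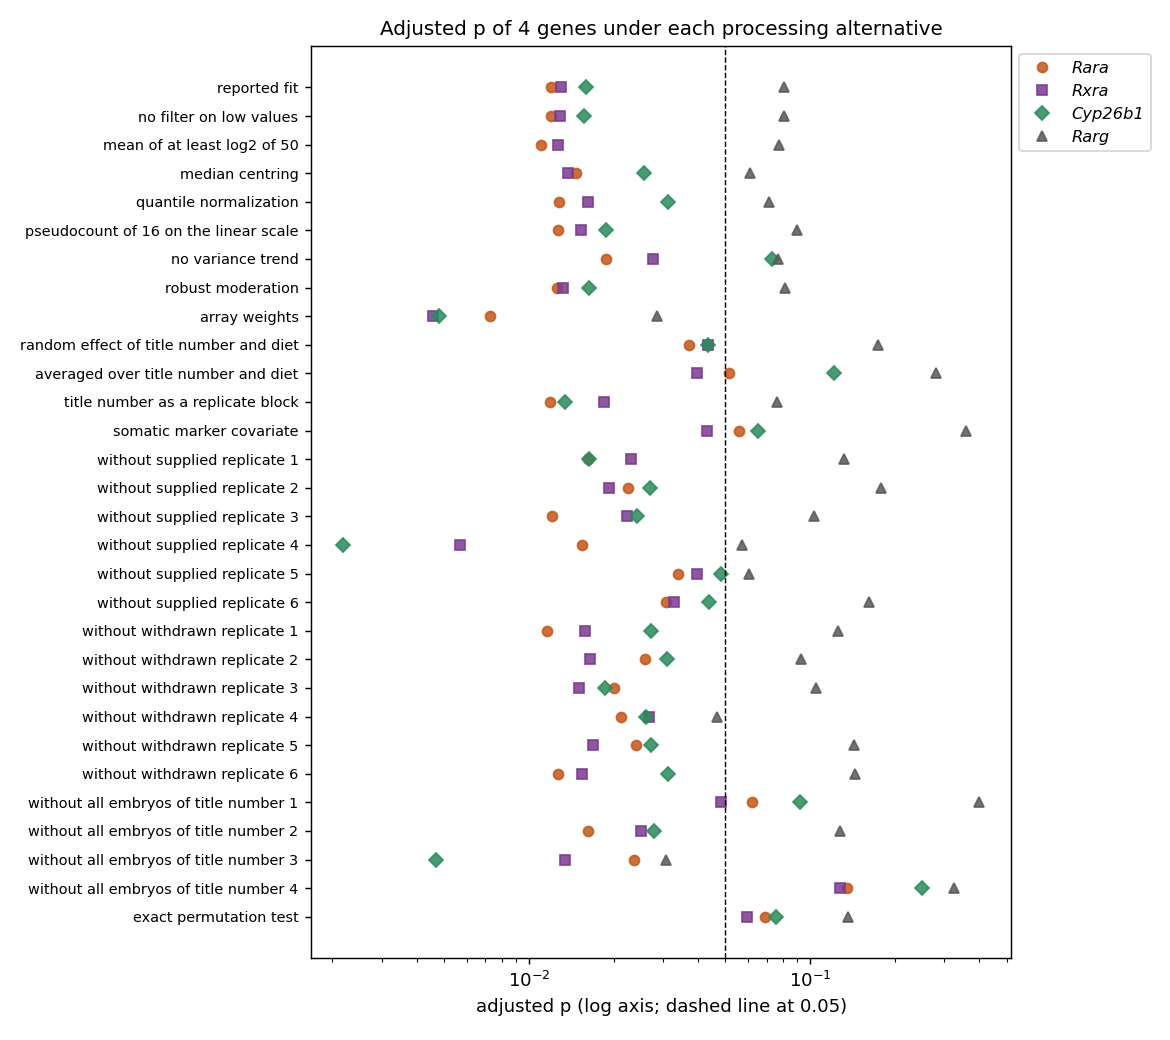
Adjusted p (log axis) of Rara, Rxra, Cyp26b1 and Rarg in the reported fit and under each alternative; the dashed line marks 0.05. Rxra lies left of the line except without title number 4 and with the exact permutation test, and Rarg crosses it in 3 alternatives, with array weights, without withdrawn replicate 4 and without title number 3.

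Related genes were also compared within each embryo. The difference of log2 values between Rara and Rarg ran from 0.47 to 1.14 in withdrawn embryos with a mean of 0.87 ± 0.23, against 1.15 to 1.56 in supplied embryos with a mean of 1.39 ± 0.16 (SD, n = 6 each). Crabp1 minus Crabp2 ran from 1.56 to 2.07 in withdrawn and from 1.24 to 1.48 in supplied embryos. Rxra minus Rxrb ran from -1.57 to -0.63 in withdrawn and from -0.88 to -0.27 in supplied embryos. These pairs were chosen after the values had been seen and are given as a description with no test, and other pairs of genes were not examined.

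**Figure D4:**
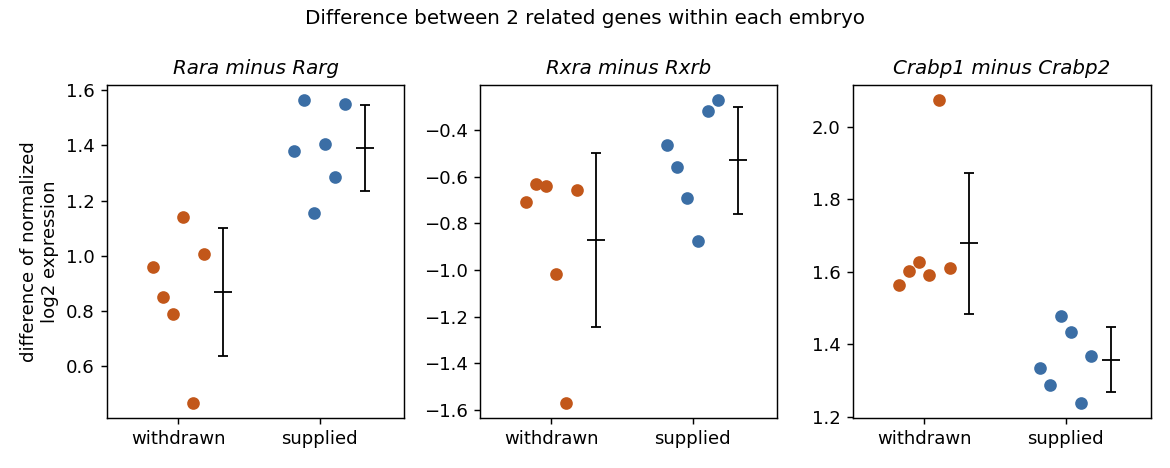
Difference of normalized log2 expression between related genes within each of the 6 withdrawn (left) and 6 supplied (right) embryos, with the mean and SD. Rara minus Rarg lies at 0.47 to 1.14 in withdrawn and 1.15 to 1.56 in supplied embryos, and Crabp1 minus Crabp2 at 1.56 to 2.07 in withdrawn and 1.24 to 1.48 in supplied embryos.

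Levels of different genes were compared per kilobase of exon, as log2 expression minus log2 of the exon length in GENCODE M21. Averaged over the 12 embryos, Crabp1 was highest at 8.80, followed by Rara at 7.22, Rxrb at 6.87, Crabp2 at 6.57, Rarg at 6.13 and Rxra at 5.71. Rarb at 2.25, Dhrs3 at 1.87 and Cyp26b1 at 1.71 were far below these. In this order the ranges over embryos overlapped between Rara and Rxrb, Rxrb and Crabp2, Rarg and Rxra, and Dhrs3 and Cyp26b1. Within an embryo the order held in 11 of 12 embryos for Rara over Rxrb, 10 of 12 for Rxrb over Crabp2, 11 of 12 for Rarg over Rxra and 12 of 12 for Dhrs3 over Cyp26b1. The order of Dhrs3 over Cyp26b1 comes from their exon lengths of 2.93 and 5.35 kb. Before that scaling Cyp26b1 was the higher, with a mean of 4.13 against 3.42. At values this low their order cannot be read as a ranking of expression. The 9 genes lie on 9 different chromosomes.

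Once the mean of each diet was removed, the genes whose values followed Rxra most closely over the 12 embryos were Spock2 (Pearson r = 0.98), Wnk2 (0.95) and Oma1 (0.95). For Rara they were Avpi1 (0.92), Fam63a (0.90) and Dynlrb1 (0.89), and for Cyp26b1 they were Ccdc36 (0.93), Ppl (0.93) and Sdhd (0.92). Rara and Rxra had an r of 0.61 with each other, and Crabp2 and Cyp26b1 an r of 0.78. Other pairs of members were of like size, with -0.63 for Rxra and Rxrb and 0.62 for Crabp1 and Crabp2. These are descriptions of 12 libraries, and the genes named for each called member were picked as the highest of all genes tested.

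Of 53 further genes of the pathway, 6 were lower and 2 higher in withdrawn embryos by limma, 15.1% called in either direction where 14.0% of all genes tested were. Their median log2 fold change was -0.02. Among the genes that changed were Stra8, Rec8 and Meioc, which respond to retinoic acid, and the coactivators Ncoa1, Ncoa6 and Kat2b. No retinoid synthesis enzyme passed (0 of 8). An unadjusted p below 0.05 was found for 1 enzyme, and for 30.2% of all genes tested. The exact permutation test called 4.49% of all genes tested and 0 of these enzymes. Among these, Aldh1a2, which makes retinoic acid in many embryonic tissues, was at -0.0052 (adjusted p = 0.956), Aldh1a1 at -0.10 (adjusted p = 0.155) and Dhrs4 at 0.13 (adjusted p = 0.328). The other Cyp26 hydroxylases, Cyp26a1 and Cyp26c1, were not found among the genes with deposited values and so could not be analysed.

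Of the genes of transport and storage, Fabp5 at 0.07 (adjusted p = 0.188) and Dgat1 at -0.09 (adjusted p = 0.408) did not pass.

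Of 11 genes known to respond to retinoic acid, 4 were lower and 1 was higher by limma, where 7.75% and 6.22% of all genes tested were. The exact permutation test, which called 4.49% of all genes tested, called 0 of these genes. Their median was -0.02. The 3 decreases of largest size were in genes of meiosis. Stra8, required for meiotic entry, ran from 7.53 to 9.66 with a median of 8.60 in withdrawn embryos and from 8.66 to 11.66 with a median of 10.49 in supplied embryos (limma adjusted p = 0.00340). The cohesin subunit Rec8 ran from 7.83 to 8.798 in withdrawn and from 8.79 to 10.36 in supplied embryos, and changed by -1.15 (SE 0.18, limma adjusted p = 0.00162). Meioc, listed under its older symbol and needed to keep the meiotic programme going, changed by -1.32 (limma adjusted p = 0.00467). Without the 4 embryos of title number 4 the log2 fold changes of Stra8, Meioc and Rec8 were -0.99, -0.78 and -0.71, and only Rec8 stayed called (limma adjusted p values of 0.151, 0.173 and 0.0395). The call of Meioc was also lost with averaging over title number and diet (0.0610), and the exact permutation test gave adjusted p values of 0.0830, 0.0906 and 0.0598. Foxa1, at -0.09, did not pass (limma adjusted p = 0.0715). Responsive genes used as readouts in other embryonic tissues were close to 0: Meis1 was at -0.02, Meis2 at -0.0054, Cdx1 at -0.02 and Tgm2 at -0.02 (limma adjusted p values of 0.814, 0.968, 0.845 and 0.784).

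Among coactivators, which receptors recruit when retinoic acid binds, 2 of 9 were lower and 1 higher by limma, where 7.75% and 6.22% of all genes tested were. The exact permutation test, which called 4.49% of all genes tested, called 0 of these coactivators. Ncoa1 ran from 8.31 to 8.58 in withdrawn and from 8.53 to 9.27 in supplied embryos, with a log2 fold change of -0.41 (SE 0.09, limma adjusted p = 0.00721). Its call was lost with averaging over title number and diet (adjusted p = 0.0545), without title number 1 (0.0604), without title number 4 (-0.29, adjusted p = 0.127) and by the exact permutation test (0.0598). The scaffold Ncoa6 changed by -0.29 (adjusted p = 0.0246) and the acetyltransferase Kat2b by 0.37 (adjusted p = 0.0362). Kat2b ran from 8.61 to 9.42 in withdrawn and from 8.08 to 8.75 in supplied embryos, and its call was lost in 14 of 29 alternatives. These were the fit with no variance trend (0.0710), the random effect of title number and diet (0.0945), averaging (0.121), the somatic covariate (0.0793), the exact permutation test (0.0971), the fits without title number 1 (0.0698) or 4 (0.13, adjusted p = 0.444), and those without supplied replicate 1, 3, 5 or 6 or withdrawn replicate 4, 5 or 6 (up to 0.105). The call of Ncoa6 was lost in 9 of 29, with the random effect (0.0547), averaging (0.124), the somatic covariate (0.0654), the exact permutation test (0.0971), without title number 4 (-0.17, adjusted p = 0.364), and without supplied replicate 5 or withdrawn replicate 4, 5 or 6 (up to 0.0706). Ncoa2 at -0.16 (adjusted p = 0.173) and Ncoa3 at 0.13 (adjusted p = 0.177) did not pass. Of 9 corepressors 0 passed, where 14.0% of all genes tested were called in either direction, with 0 at an unadjusted p below 0.05 and 0 called by the exact permutation test; Ncor1 was at 0.015, Zfp423 at -0.11 and Sin3a at 0.07.

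Nuclear receptors that pair with Rxr were not called by limma (0 of 8), where 14.0% of all genes tested were called in either direction. Before adjustment 5 were below 0.05, where 30.2% of all genes tested were. The exact permutation test, which called 4.49% of all genes tested, called 1 of these receptors, the thyroid hormone receptor Thra. Thra ran from 6.996 to 7.19 in withdrawn and from 7.20 to 7.68 in supplied embryos, without overlap, and had a log2 fold change of -0.22 (limma adjusted p = 0.0621). Thrb was at -0.07 (limma adjusted p = 0.0844). Of 6 orphan nuclear receptors that bind like elements, 0 were called by limma, 2 were below 0.05 before adjustment and 0 were called by the exact permutation test. The shares of all genes tested were 14.0%, 30.2% and 4.49%, so these counts are near those of genes at large. The one nearest the threshold was Nr2f2 at -0.14 (limma adjusted p = 0.0602), followed by Nr2f1 at -0.05 (limma adjusted p = 0.114).

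**Figure D5:**
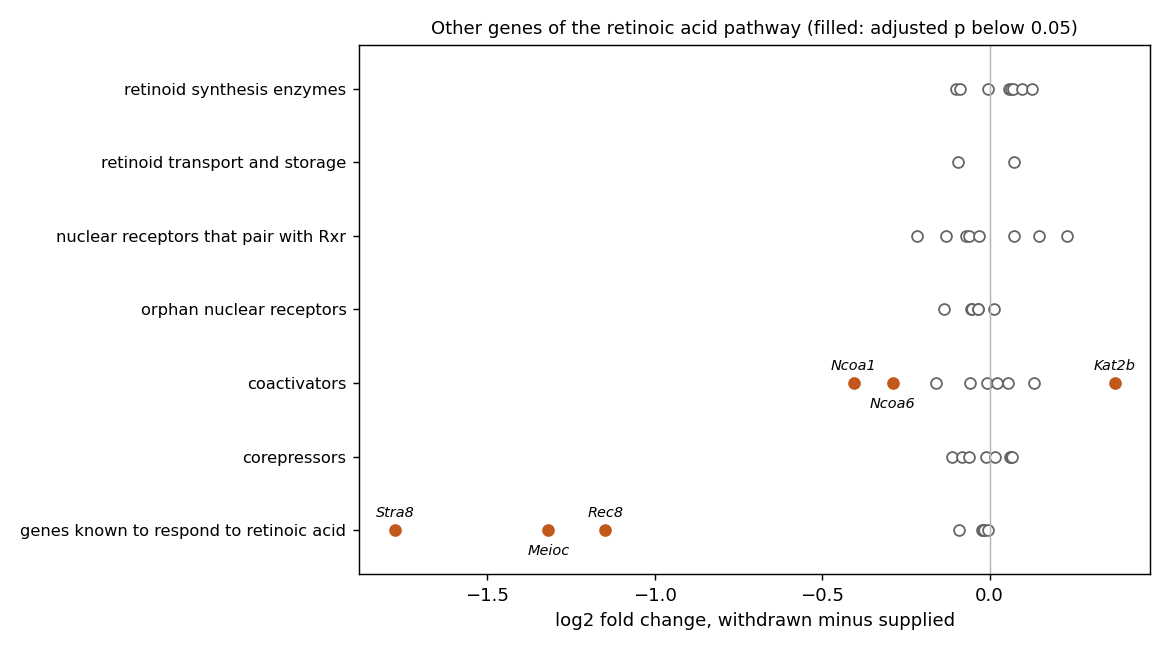
Log2 fold change, withdrawn minus supplied, of the further pathway genes by list; each circle is 1 gene, filled where the limma adjusted p is below 0.05, and genes not reported here are left out. The 3 genes of meiosis at the lower left, Stra8, Meioc and Rec8, lie beyond -1, and the rest lie between -0.41 and 0.37.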

How the data were processed

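RNA was sequenced from Oct4-positive germ cells of 12 embryos, 6 per diet. The authors deposited normalized log2 values for 12516 genes. Per the submitters' processing notes, Trim Galore 0.4.0, FastQC, TopHat2 2.0.13, DESeq2 1.10.1 and build mm9 were named, without roles; the sources used here do not name the counting tool, the annotation or the exact transformation. Depth is unknown and no counting interval is given.

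Genes with a mean of at least 3.32 (log2 of 10) were kept, leaving 12432. The diets were compared with limma 3.58.1 in R 4.3.3 (moderated variances with a trend on expression, two-sided, Benjamini-Hochberg over all genes kept). The fit was tested on simulated data. The members, lists and tests were chosen with earlier results of these data known. Text names every member, the called genes of each list and up to 2 others with the smallest p; Aldh1a2, Ncor1, Meis1, Meis2 and Cdx1 were added after values were seen, and some genes of the lists are counted but not reported here by name. Lists held 75 further genes, of which 53 were tested; older symbols were matched through RefSeq synonyms. Exact permutation tests used all 924 arrangements of embryos. Titles carry numbers from 1 to 4 in both diets, of unstated meaning; if embryos sharing a number and diet are littermates, p values are too small, and fits with them tied (statmod 1.5.0) or averaged were run. Alternatives changed the filter, scaling, pseudocount, variance model, weights and embryos used.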

Additional observations from a re-analysis of the deposited data

Results flagged for a closer look

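Within the withdrawn group, replicate 5 stood apart from the other 5 embryos for Rxra and Crabp1. Its Rxra value was 7.46, where the next lowest withdrawn embryo had 7.96, and its Crabp1 value was 9.04, where the next highest had 8.57. In each case the gap to the nearest embryo was a share of the group's range (0.681 and 0.733) above Dixon's critical value of 0.625 for 6 samples. These were 2 of 18 groups checked, and chance flags about 1 in 20. That embryo also had the lowest Rara (8.94) and the highest Rarg (8.47) of all 12. Without it the log2 fold change was -0.29 for Rxra (adjusted p = 0.0168) and 0.11 for Crabp1 (adjusted p = 0.359).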

How the results depend on the processing

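No called member changed direction in any of its 29 alternatives (28 for Cyp26b1, which the stricter filter dropped). The stricter filter also dropped Rarb and Dhrs3. Depth is unknown, and shrinkage of low values may limit what these 3 low genes can show. Lost calls were the following log2 fold changes. Averaging embryos of 1 number and diet gave Rara -0.31 and Cyp26b1 -0.11, the somatic covariate gave -0.34 and -0.14, and leaving out title number 1 gave -0.35 and -0.14. Leaving out title number 4 gave Rara -0.27, Rxra -0.25 and Cyp26b1 -0.080. The exact permutation test lost Rara (-0.32), Rxra (-0.39) and Cyp26b1 (-0.13), and a fit with no variance trend lost Cyp26b1 (-0.13). With a pseudocount of 16 Cyp26b1 stayed called at -0.069. Members called lower numbered 1, 1, 1, 0 and 0 with averaging, the covariate, without number 1, without number 4 and by the exact test. Rarg was called with array weights (0.22), without title number 3 (0.26) and without withdrawn replicate 4 (0.25), 1 member called higher in each. Rarb was -0.024 without title number 3, and Rxrb 0.0013 without title number 2, both uncalled. The cause of these shifts was not tested.

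Over all genes tested, the lower and higher calls were 491 and 395 with the random effect, 188 and 110 with averaging, 257 and 192 with the covariate, 404 and 325 without title number 1, 40 and 9 without title number 4, and 291 and 267 by the exact test. With median centring they were 795 and 904. With 1 embryo left out they ran from 443 (supplied replicate 5) to 1281 (supplied replicate 4) lower and from 365 to 1034 higher, with 627 and 506 without supplied replicate 6. Rarg then ran from 0.17 to 0.25, Rarb from -0.015 to 0.053, and members called higher from 0 to 1.

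Further pathway genes called lower numbered 2 with averaging, 1 without title number 4 and 1 by the exact test. Those called higher numbered 4 with array weights, 1 with no variance trend and 1 with the random effect, and 0 with averaging, with the covariate, without title number 1 or 4 and by the exact test. With 1 embryo left out they ran from 0 to 3. Same-numbered embryos of both diets deviated together with r of 0.27, -0.10, 0.18 and -0.17 for numbers 1 to 4, so the numbers were not taken to pair them. With the title number as a replicate block 3 members were called lower, as in the reported fit (Rara -0.32, adjusted p = 0.0118), and 1089 of all genes lower and 973 higher. With 1 mismatch allowed in the element, 1 member still had a match.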

Other observations

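Supplied replicate 4 had Cyp26b1 at 4.07, the lowest of the supplied embryos and within the withdrawn range of 4.04 to 4.09, and Rxra at 8.17, again the lowest of the supplied embryos and below the highest withdrawn embryo at 8.20. It was also the lowest supplied embryo for Stra8 (8.66), Rec8 (8.79) and Meioc (7.46). For Rara the same embryo was the highest of all 12, at 9.62. Without supplied replicate 4 the adjusted p was 0.00218 for Cyp26b1, 0.00569 for Rxra and 0.0154 for Rara.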
